A study of Mus musculus with 16 samples.

Results

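Havcr1 (ENSMUSG00000040405) and Lcn2 (ENSMUSG00000026822) encode the kidney injury markers KIM-1 and NGAL. They were taken by name as established injury markers and are 2 of 56980 gene identifiers measured in mouse kidney cortex. Both were among the 17972 genes with enough reads to be tested. The question was how the RNA of each marker behaved library by library after kidney ischaemia, with and without the ceramide-synthesis gene Degs1, and how far the markers went together.

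All animals were male C57Bl/6J mice carrying floxed Degs1, whose product, dihydroceramide desaturase, makes ceramide from dihydroceramide. Controls (fl/fl) were Degs1fl/fl littermates, and knockouts (iGKO) were Degs1iGKO mice, from a cross of Degs1fl/fl with Rosa26-CreERT2, in which tamoxifen induces deletion in cells throughout the body and not in the tubule alone. Both genotypes received tamoxifen by injection into the peritoneum, 3 mg on each of 5 days, at 9 weeks of age. At 12 weeks the mice had surgery. The vessels of both kidneys were clamped and then released (bilateral ischaemia-reperfusion injury, here IRI), or exposed without clamping (sham). The labels' protocol gives a clamp time of 28 min, with other times possible where stated, and cortex was collected at 24 h. Each genotype and operation gave 1 group, 4 in all with 4 libraries each, and a library is named by its group and number, as in iGKO sham 2.

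KIM-1 is a membrane receptor of the TIM family that is barely made in the healthy tubule. After injury it appears on surviving proximal tubule cells, where it binds phosphatidylserine on dying cells, and its outer part is cut off and reaches the urine. NGAL is a small secreted lipocalin that binds iron-carrying siderophores. It is stored in the secondary granules of neutrophils and is also made by the injured thick ascending limb and collecting duct, so its RNA in whole cortex can come from more than one cell type.

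The libraries held 12704273 to 18816343 counted reads. Degs1 ranged from 84.0 to 133 CPM, read counts scaled to the depth of the library, in the 8 fl/fl libraries and from 40.2 to 71.7 CPM in the 8 iGKO libraries, with no overlap. It was lower in iGKO after IRI (log2 difference -1.05 ± 0.18 SE, edgeR adjusted p = 0.0325), while after sham the difference of -0.82 ± 0.18 did not pass (edgeR adjusted p = 0.9999). Reads of mitochondrial genes made up 0.443% of iGKO sham 4 and 2.05% to 6.48% of the other libraries. The 22 proximal tubule genes had a summed level of 13721 to 53617 CPM per library. All libraries carry 1 batch label. The labels name separate samples and do not say that each came from its own mouse, so p-values measure the spread between these samples.

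The start regions of the genes are shown because the markers moved together in fl/fl kidneys. RefSeq lists 1 start window for Lcn2 and 3 for Havcr1 on GRCm38.p6, and 250 bases before each start were searched on both strands. For Lcn2, 197 of these bases lie in exons of some GENCODE M21 transcript of the gene. Only 30 bases around its match are shown, and all 30 lie in such exons. For Havcr1 the second window is shown, the most upstream of the 3 with a GENCODE transcript start within 100 bases of its start. Capitals mark matches to the C/EBP motif TTGCNNAA or to the core ACGTG of the hypoxia response element.
Lcn2, chr2:32387937-32387966, minus strand: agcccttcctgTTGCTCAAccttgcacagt
Havcr1, chr11:46750261-46750510, plus strand: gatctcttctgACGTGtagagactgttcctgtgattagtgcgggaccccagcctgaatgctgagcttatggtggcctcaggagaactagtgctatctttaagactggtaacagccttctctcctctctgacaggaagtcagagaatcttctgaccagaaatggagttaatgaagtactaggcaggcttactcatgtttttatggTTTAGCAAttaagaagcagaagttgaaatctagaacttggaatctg

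The C/EBP letters stood 216 bases before the Lcn2 start. On the minus strand they stood 46 bases before the start in the second Havcr1 window, and in no other Havcr1 window. They occurred in 9.56% of the 32851 start windows of all genes. The ACGTG core stood 239 bases before the start in the second Havcr1 window and 154 bases before it in the third, and it occurred in 16.6% of all windows. No match to the NF-kappaB consensus (7.25% of windows), STAT TTCNNNGAA (7.02%), AP-1 TGANTCA (6.75%) or TEAD GGAATG (12.6%) stood in any of the 4 windows. These matches describe letters in a short window, not sites in use.

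In fl/fl kidneys both markers rose strongly after IRI. Havcr1 stood at 8.53, 4.15, 10.1 and 24.7 CPM in fl/fl sham 1 to 4 and at 100.6, 1325, 1666 and 710 CPM in fl/fl IRI 1 to 4. Every fl/fl IRI library lay above every fl/fl sham library, and IRI 1 lay far below the other IRI libraries. The rise was 6.32 ± 0.97 on the log2 scale (edgeR adjusted p = 0.00117), the rank 4 rise among 17972 genes.

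Lcn2 stood at 4.27, 4.60, 17.3 and 14.9 CPM in fl/fl sham 1 to 4 and at 47.6, 215, 412 and 322 CPM in fl/fl IRI 1 to 4. The groups did not overlap, and IRI 1 was again the lowest of the IRI libraries. Its rise was 4.60 ± 0.60 on the log2 scale (edgeR adjusted p = 0.000583), rank 20 by rise. In this comparison 15.5% of all genes tested were called, 8.46% higher and 7.01% lower, and 9.65% had every IRI library above every sham library. Both calls held with each of the 16 libraries left out in turn.

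**Figure D1:**
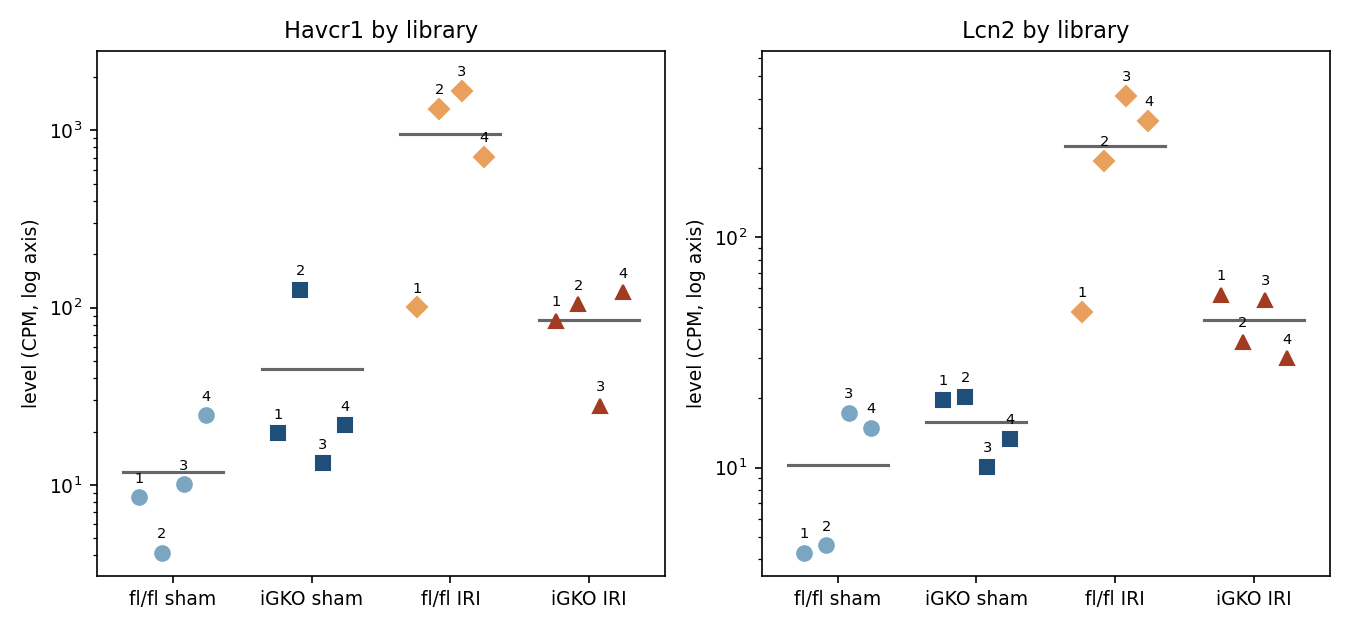
Levels of Havcr1 (left) and Lcn2 (right) in CPM on a log axis, 1 point per library with its number and a bar at the group mean. The libraries fl/fl IRI 2 to 4 stand at 710 CPM or more for Havcr1 and 215 CPM or more for Lcn2, fl/fl IRI 1 sits among the iGKO IRI libraries, and iGKO sham 2 stands at 126 CPM for Havcr1.

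In iGKO kidneys neither marker passed the test. Lcn2 stood at 19.7, 20.4, 10.1 and 13.3 CPM in iGKO sham 1 to 4 and at 56.4, 35.2, 53.5 and 29.9 CPM in iGKO IRI 1 to 4. All 4 iGKO IRI libraries lay above all 4 iGKO sham libraries, which 2.24% of genes tested also showed. The log2 difference of 1.46 ± 0.53 had an edgeR unadjusted p of 0.0138 and an adjusted p of 0.657.

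Havcr1 stood at 19.5, 126, 13.2 and 21.7 CPM in iGKO sham 1 to 4 and at 84.0, 104, 28.0 and 122 CPM in iGKO IRI 1 to 4. The groups overlapped because iGKO sham 2 lay above all 4 iGKO IRI libraries. The difference was 0.91 ± 0.78 (edgeR adjusted p = 0.973), and without iGKO sham 2 it was 2.22 (edgeR adjusted p = 0.9992). No gene passed in this comparison with edgeR (0.0% called), 1145 genes (6.37%) had an unadjusted p under 0.05, and DESeq2 called 44.

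After sham the genotypes did not differ by the test for either marker. The log2 difference, iGKO against fl/fl, was 1.93 ± 0.81 for Havcr1 and 0.63 ± 0.54 for Lcn2 (edgeR adjusted p = 0.9999 for both). The edgeR unadjusted p was 0.0305 for Havcr1, the rank 11 rise among 17972 genes, and 0.260 for Lcn2. Degs1 itself had the same adjusted p of 0.9999 in this edgeR comparison, so these values do not show the genotypes to be alike. Without iGKO sham 2 the Havcr1 difference was 0.62 (edgeR adjusted p = 0.9999). No gene passed with edgeR (0.0% called), 210 (1.17%) had an unadjusted p under 0.05, and DESeq2 called 0.

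After IRI Lcn2 was lower in iGKO, close to the threshold, and Havcr1 did not pass. The Lcn2 difference was -2.51 ± 0.54 (edgeR adjusted p = 0.0453), and Havcr1 gave -3.49 ± 0.85 (edgeR adjusted p = 0.0615). Havcr1 had the rank 10 fall and Lcn2 the rank 38 fall among 17972 genes, of which 0.851% were called, 0.178% higher and 0.673% lower. For each marker 3 of 4 fl/fl IRI libraries lay above every iGKO IRI library, and fl/fl IRI 1 lay inside the iGKO range. Among the 8 IRI libraries it ranked 6 for both markers.

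By group mean both markers had the order fl/fl IRI, iGKO IRI, iGKO sham, fl/fl sham. The means for Havcr1 were 950.4 ± 691, 84.6 ± 40.8, 45.0 ± 53.8 and 11.9 ± 8.90 CPM (SD, n = 4). Those for Lcn2 were 249 ± 157, 43.7 ± 13.2, 15.9 ± 4.99 and 10.2 ± 6.79 CPM. Of neighbours in this order, only fl/fl IRI and iGKO IRI differed by the test, and only for Lcn2.

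The calls after IRI moved with single libraries. Lcn2 kept its call in 2 of 16 repeats with 1 library left out, those without iGKO sham 4 and without fl/fl IRI 1, and its difference ranged from -2.85 to -2.16 (edgeR adjusted p from 0.000732 to 0.138). Havcr1 passed in 2 repeats, without iGKO sham 2 (edgeR adjusted p = 0.0498) and without fl/fl IRI 1 (edgeR adjusted p = 0.00384). Without fl/fl IRI 1 the differences were -3.87 for Havcr1 and -2.85 for Lcn2.

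**Figure D2:**
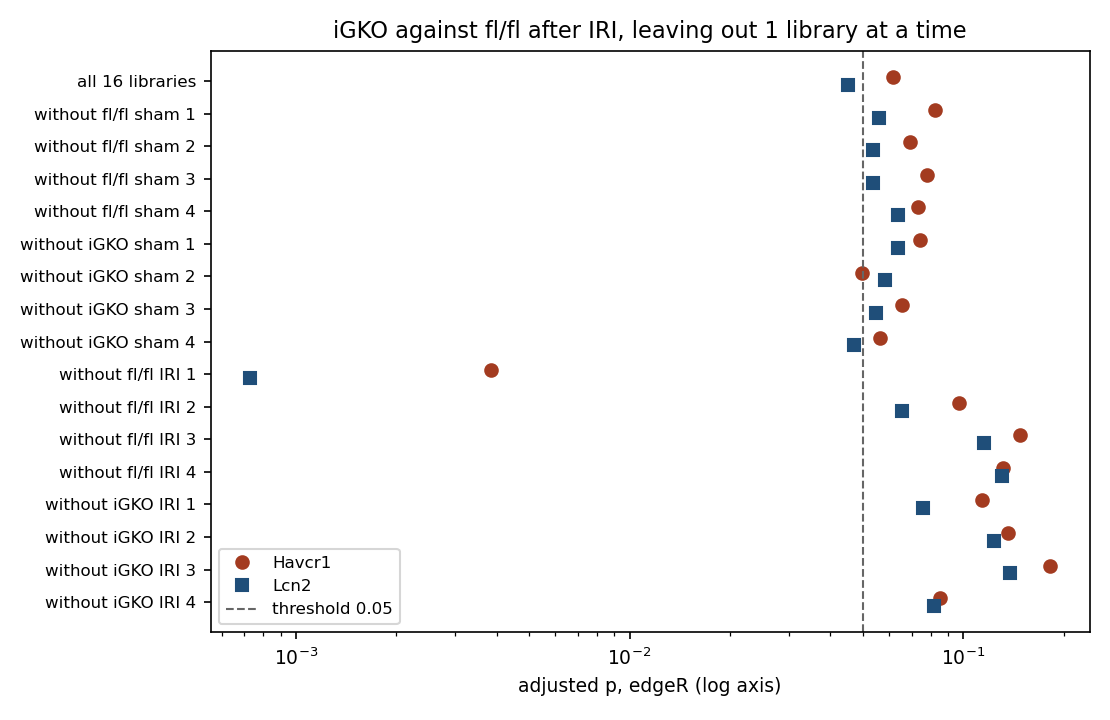
Adjusted p from edgeR (log axis) for iGKO against fl/fl after IRI, with all 16 libraries and with each left out in turn; the dashed line is the threshold of 0.05. Leaving out fl/fl IRI 1 gives the smallest values, 0.00384 for Havcr1 and 0.000732 for Lcn2, and the other points lie close to the line or above it.

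The log2 response to IRI in iGKO minus that in fl/fl was -5.42 ± 1.17 for Havcr1 and -3.13 ± 0.76 for Lcn2. This difference of differences did not pass for either marker (edgeR adjusted p = 0.244 and 0.253). No gene passed it with edgeR (0.0% called), 2033 (11.3%) had an unadjusted p under 0.05, and DESeq2 called 112, with both markers among them (DESeq2 adjusted p = 0.00559 for Havcr1 and 0.0104 for Lcn2). The same call appeared with edgeR without fl/fl IRI 1 (edgeR adjusted p = 0.00643 and 0.00518).

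**Figure D3:**
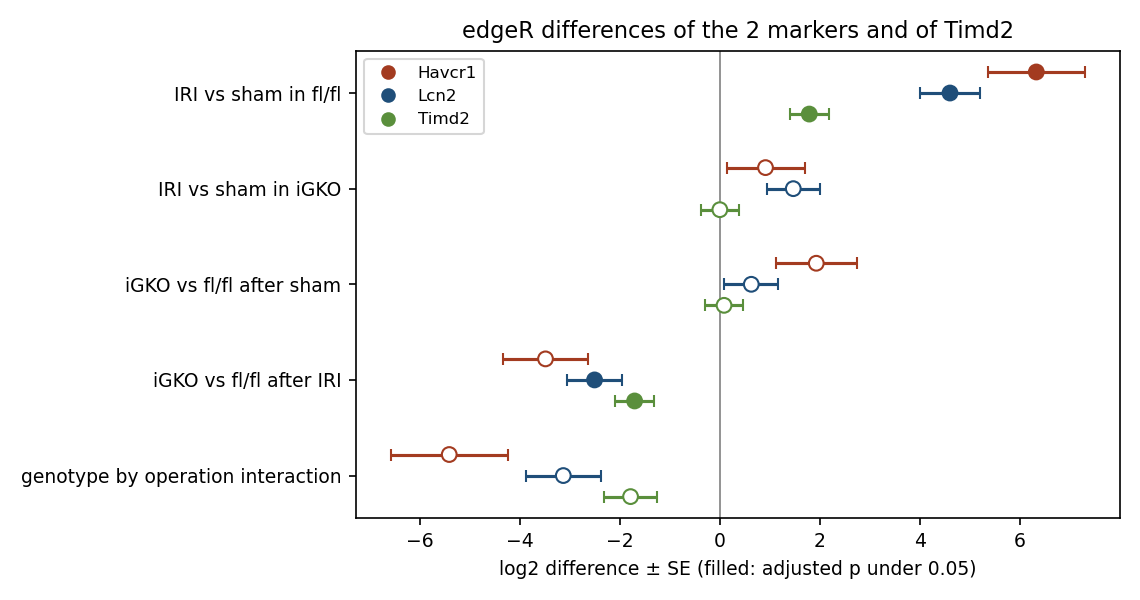
Log2 differences with their standard errors from edgeR for Havcr1, Lcn2 and the paralog Timd2 in the 5 comparisons, with filled points for adjusted p under 0.05. All 3 genes are filled for IRI against sham in fl/fl, and Lcn2 and Timd2 for iGKO against fl/fl after IRI.

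The markers were compared within each library by the log2 ratio of Havcr1 to Lcn2. Its mean was 0.19 ± 0.77 (SD, n = 4) in fl/fl sham, 0.91 ± 1.16 in iGKO sham, 1.71 ± 0.74 in fl/fl IRI and 0.80 ± 1.30 in iGKO IRI. In fl/fl it differed by 1.53 between IRI and sham in the exact 2-sided permutation test of 4 against 4 (p = 0.0286, the smallest this design allows), and the adjusted p over 4 comparisons was 0.114. After IRI iGKO differed from fl/fl by -0.91 (exact permutation p = 0.286, adjusted p = 0.533). In iGKO the ratio differed by -0.11 between IRI and sham (exact permutation p = 0.943), and the sign turned without iGKO IRI 3 (0.47) or iGKO sham 2 (0.45).

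Per kilobase of exon, Havcr1 (2311 bases) was above Lcn2 (2623 bases) by 2.40, 7.00, 4.59 and 2.50 times in fl/fl IRI 1 to 4. The same per-kilobase ratio was 1.69, 3.36, 0.594 and 4.65 in iGKO IRI 1 to 4. In iGKO IRI 3 Lcn2 exceeded Havcr1, the only IRI library of which this was true. In the sham libraries the highest per-kilobase ratio was 7.00, in iGKO sham 2, and the lowest was 0.662, in fl/fl sham 3.

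**Figure D4:**
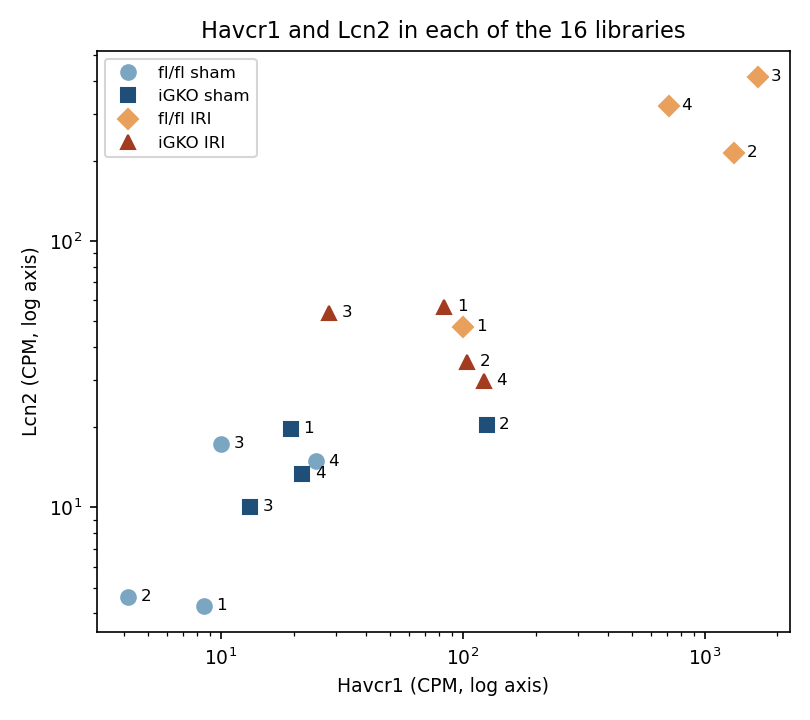
Havcr1 (x axis) against Lcn2 (y axis) in each of the 16 libraries, in CPM on log axes. The libraries fl/fl IRI 2 to 4 stand apart at the upper right, and iGKO sham 2 lies to the right of the other sham libraries at a similar Lcn2 level.

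Over the 8 sham libraries Pearson's r of log2(CPM + 0.5) was 0.717 (exact permutation p = 0.0381, adjusted over 2 relations 0.0381) and Spearman's rho was 0.714 (exact permutation p = 0.0576, adjusted 0.115). Without fl/fl sham 2 and iGKO sham 2, the libraries farthest from the median in Havcr1, r was 0.607 (exact permutation p = 0.182), of similar size but no longer past the threshold with 6 libraries. The 8 IRI libraries fall into fl/fl IRI 2 to 4 and the other 5, both short of the 6 libraries asked for here, so no r is given within them. The 3 high libraries took ranks 1 to 3 for both markers. Among the 4 iGKO IRI libraries the order did not match. There iGKO IRI 4 was the highest for Havcr1 and the lowest for Lcn2, and iGKO IRI 3 was the lowest for Havcr1 at 28.0 CPM with Lcn2 at 53.5 CPM.

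As a description over 16 libraries among 11890 genes, Havcr1 was closest to Spp1, the gene of osteopontin (r = 0.98), followed by Chrnb1 (0.967), Rras (0.951), Actn1 (0.949) and Akr1b8 (0.949), with Lcn2 at rank 23 (0.925). Lcn2 was closest to Tmbim1 (0.947), Gm42793 (0.947), Hspb1 (0.946), Chrnb1 (0.939) and Spp1 (0.939), with Havcr1 at rank 21. These values share the step between sham and IRI. Over the 8 IRI libraries alone the closest to Havcr1 were Drg1 (0.99), Timd2 (0.987), Mrps18c (0.981), Champ1 (0.978) and Cpe (0.976), with Lcn2 at rank 361. Those closest to Lcn2 were Efl1 (0.992), Flii (0.984), Tmem184b (0.983), Mdn1 (0.983) and Eif4ebp1 (0.982), with Havcr1 at rank 654. In the 8 sham libraries the genes closest to Havcr1 in the IRI libraries had r between -0.385 and 0.391 with it. The genes closest to it over 16 libraries had sham r from 0.788 (Akr1b8) to 0.948 (Chrnb1), though the sham libraries were part of that choice. With Lcn2, sham r was between -0.304 and 0.341 for its closest genes in the IRI libraries. It was between 0.391 and 0.839 for its closest genes over 16 libraries.

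One sham library stood apart for Havcr1. In iGKO sham 2 Havcr1 was at 126 CPM, 5.09 times the next highest sham library (24.7 CPM in fl/fl sham 4) and above all 4 iGKO IRI libraries, with 2029 reads counted. Lcn2 in this library was 20.4 CPM, also the highest of 8 sham libraries, but only 1.04 times the next. Its depth was 16735829 reads and its mitochondrial share 6.30%, both inside the range of the other sham libraries.

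Which other genes were highest there was looked up after this value was seen, so the counts describe the library and have no test. It was the highest of the 8 sham libraries for 9.35% of all genes tested, for 11 of 31 fluid injury markers and for 9 of 22 tubule injury transcripts. By summed level it did not stand alone. The fluid injury markers summed to 7438 CPM in iGKO sham 2 and to 8276 CPM in iGKO sham 4, against 5837 to 6451 CPM in the other sham libraries. The tubule injury transcripts summed to 922 and 909 CPM in these libraries, against 626 to 806 CPM in the others. Despite its higher fluid marker sum, iGKO sham 4 had Havcr1 at 21.7 CPM, Krt20 at 3.30 CPM and Fga at 51.6 CPM. It was also the library with 0.443% mitochondrial reads. The 11 fluid injury markers highest in iGKO sham 2 were Clu, Spp1, Cst3, Lgals3, Mif, Ccn1, Ccn2, Krt20, Fga, Fgb and Fgg. The 9 tubule injury transcripts highest there included Sox9, Tnfrsf12a, Plaur, Cdkn1a, Myc, Plin2, Sprr1a and Akap12. The library iGKO sham 2 was the highest for 0 of 24 NF-kappaB and innate genes, 1 of 11 neutrophil genes and 0 of 14 macrophage genes. It was the highest for 3 of 19 genes of the IL-6 family and STAT3 and for 5 of 22 genes of the thick limb and distal nephron. It was the lowest of 8 for 8.85% of all genes tested and for 7 of 22 proximal tubule genes, and their summed level of 45700 CPM was the lowest of the sham libraries, whose others ranged from 45809 to 53617 CPM. Krt20, a keratin of injured tubule, had a larger lead than Havcr1, with 34.4 CPM against at most 4.75 CPM in the other sham libraries. The fibrinogen chains Fgg and Fga were at 143 and 171 CPM against at most 59.6 and 80.8 CPM in the other sham libraries. The cause was not tested.

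**Figure D5:**
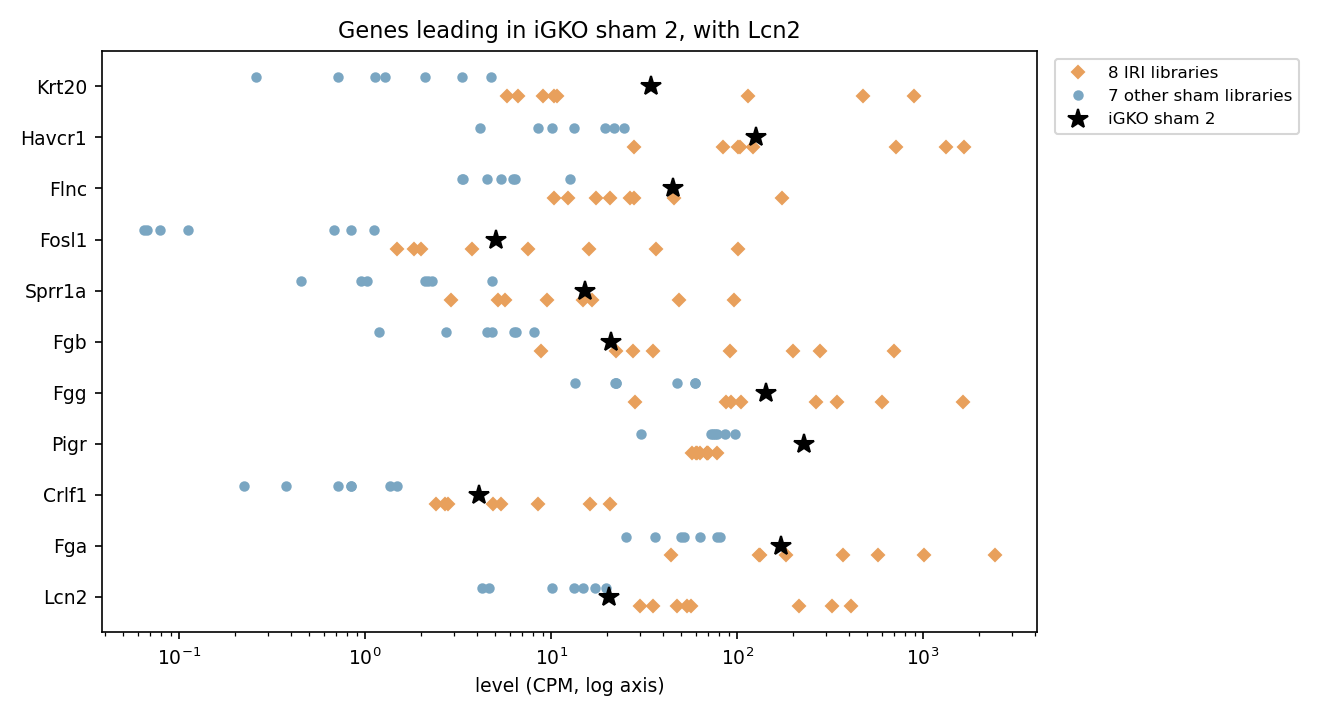
Levels in CPM (log axis) of the 10 genes with the largest lead in iGKO sham 2 (star) over the other 7 sham libraries (circles), beside the 8 IRI libraries (diamonds), with Lcn2 added. Havcr1 in iGKO sham 2 lies within the range of the IRI libraries, whereas Lcn2 at 20.4 CPM lies below all 8 of them.

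The genes around KIM-1 moved less than the marker. Timd2, a TIM paralog whose product binds H-ferritin, stood at 39.7, 25.2, 56.9 and 45.8 CPM in fl/fl sham and at 49.4, 201, 178 and 149 CPM in fl/fl IRI 1 to 4. In iGKO IRI 1 to 4 it was at 54.3, 42.9, 23.9 and 55.5 CPM. It rose in fl/fl by 1.79 ± 0.38 (edgeR adjusted p = 0.00708) and was lower in iGKO after IRI by -1.71 ± 0.38 (edgeR adjusted p = 0.0479). In iGKO sham 2 it was at 53.2 CPM, below the 60.1 CPM of iGKO sham 3. Transcripts of the pair share 135 stretches of 31 bases, 5.85% of those in Havcr1, and the treatment of reads that fit both is not given in the sources used here. Havcr2, the TIM-3 gene of immune cells, gave 0.83 ± 0.40 (edgeR adjusted p = 0.170).

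Of 19 genes listed for shedding KIM-1, for clearing dying cells or as other partners, 2 rose and 1 fell after IRI in fl/fl. This share was near the 15.5% called over all genes. The sheddases Adam10 (90.3 ± 10.5 to 108 ± 17.6 CPM, SD, n = 4) and Adam17 (42.6 ± 3.26 to 50.9 ± 10.2 CPM) did not pass (edgeR adjusted p = 0.431 and 0.234). Cd300lf, which encodes a myeloid receptor for phosphatidylserine, rose by 3.47 ± 0.39 (edgeR adjusted p = 0.000361), Nr4a1 rose by 1.55 ± 0.40 (edgeR adjusted p = 0.0160), and Mertk, a receptor for dying cells, fell by 0.60 (edgeR adjusted p = 0.0148). Among 12 partners of NGAL, 2 rose and 3 fell, against 8.46% called higher and 7.01% lower over all genes. Lrp2 and Cubn, the endocytic receptors megalin and cubilin, fell by 1.28 and 1.39 (edgeR adjusted p = 0.0105 and 0.00316), and Bdh2, linked to a mammalian siderophore, fell by 1.08 (edgeR adjusted p = 0.00390). Mmp9, whose protein forms a complex with NGAL, rose by 2.75 ± 0.70 (edgeR adjusted p = 0.0167), and Fth1, the heavy chain of ferritin, by 0.79 ± 0.23 (edgeR adjusted p = 0.0316). The NGAL receptor Slc22a17 gave -0.71 ± 0.32 (edgeR adjusted p = 0.146).

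Genes of signals known to induce Lcn2 also rose in fl/fl, and their part in the Lcn2 level was not tested. Of 19 tested genes of the IL-6 family and STAT3, 14 rose and 0 fell, with a median difference of 1.93 against 0.01 over all genes. Of 24 NF-kappaB and innate genes 16 rose and 0 fell, with a median of 0.94. Over all genes tested 8.46% were called higher and 7.01% lower. Nfkbiz, an IkappaB family member known to be needed for Lcn2 induction, went from 20.3 ± 4.08 to 96.9 ± 43.7 CPM (SD, n = 4), a rise of 2.25 ± 0.26 (edgeR adjusted p = 0.000423). After IRI it was lower in iGKO, at 34.3 ± 3.42 CPM, by -1.50 ± 0.26 (edgeR adjusted p = 0.0325). The cytokine gene Clcf1 rose by 3.36 ± 0.47 and was lower in iGKO after IRI by -2.48 ± 0.45 (edgeR adjusted p = 0.000871 and 0.0340). After IRI 5 of 19 and 3 of 24 genes of these lists were lower in iGKO, against 0.673% of all genes tested.

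Of 31 other fluid injury markers tested, 14 rose and 1 fell in fl/fl, with a median of 1.36. Over all genes tested 8.46% were called higher and 7.01% lower. Clu, the secreted chaperone clusterin, went from 217 ± 39.6 to 1349 ± 719 CPM (SD, n = 4) in fl/fl and was 355 ± 78.9 CPM in iGKO IRI. It rose by 2.64 ± 0.32 (edgeR adjusted p = 0.000556) and was lower in iGKO after IRI by -1.93 ± 0.31 (edgeR adjusted p = 0.0325). Clu, Spp1, Hmox1 and Krt20 were the 4 of 31 lower in iGKO after IRI, against 0.673% of all genes tested. Of 22 tubule injury transcripts 18 rose in fl/fl, against 8.46% of all genes tested, with a median of 2.53. After IRI 7 of the 22 were lower in iGKO, against 0.673% of all genes tested.

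Markers of other cells moved in the same libraries. In bulk tissue fewer cells of a type and less RNA per cell cannot be told apart. Of 11 neutrophil genes tested 8 rose in fl/fl, against 8.46% of all genes tested, with a median difference of 3.69. The summed level of all 18 neutrophil genes listed was 39.6, 138, 255 and 53.5 CPM in fl/fl IRI 1 to 4. In fl/fl sham it was 9.99 to 17.7 CPM. In iGKO IRI 1 to 4 the sum was 61.0, 52.9, 36.1 and 17.8 CPM, in iGKO sham 4.58 to 30.5 CPM. The genes of proteins stored with NGAL in secondary granules had means in fl/fl IRI of 0.242 CPM for Camp, 1.83 for Ngp and 0.809 for Ltf. The mean of Lcn2 was 249 CPM. Summed over the 4 libraries of a group, Ngp had 2 reads in fl/fl sham, 115 in fl/fl IRI, 1 in iGKO sham and 3 in iGKO IRI. Camp had 0, 15, 1 and 5 reads in the same order, and Ltf had 25, 50, 74 and 52. In fl/fl IRI S100a8 and S100a9 were at 17.4 and 25.2 CPM, and Elane and Ctsg had 0 reads. Of the 8 that rose, Csf3r went from a mean of 3.86 CPM in fl/fl sham to 32.15 CPM in fl/fl IRI. Between the same groups Cxcr2 went from 0.570 to 7.31 CPM, Retnlg from 0.488 to 6.53 CPM and Chil3 from 1.96 to 13.1 CPM. The part of neutrophils in the Lcn2 level was not tested. Among macrophage genes 1 of 14, Cd14, rose, a share near the 8.46% called higher over all genes. Their summed level was 1067 CPM in fl/fl IRI 1 against 299 to 386 CPM in fl/fl IRI 2 to 4.

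Of 22 proximal tubule genes 12 fell and 0 rose in fl/fl, against 7.01% lower and 8.46% higher over all genes, with a median difference of -1.24. Their summed level was 37997 CPM in fl/fl IRI 1 and 22033, 13721 and 25830 CPM in fl/fl IRI 2 to 4, against 30777 to 38113 CPM in iGKO IRI. The library with the lowest level of both markers within fl/fl IRI also had the highest proximal tubule level of that group. How far these levels account for the marker values was not tested.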

How the data were processed

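Kidney cortex RNA was depleted of ribosomal RNA and made into stranded libraries, per the labels' protocols. The deposited values were raw counts of reads per Ensembl gene. Per the submitters' processing notes the tools were STAR 2.7.9a, featureCounts 1.6.3, cutadapt 1.16 and DESeq2 1.36.0, beside quality-control tools, and the build was GRCm39 (mm39), with no role stated; strand and multi-mapping settings are not given in the sources used here. Symbols were matched by ID to GENCODE M21, for 52073 of 56980 IDs.

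Counts were filtered with filterByExpr, scaled with TMM and fitted with edgeR 4.0.16 (R 4.3.3), quasi-likelihood, 1 coefficient per group over all 16 libraries, so all groups share the spread, with Benjamini-Hochberg adjustment over 17972 genes at a threshold of 0.05. Levels are CPM on the TMM scale; ratios and correlations used log2(CPM + 0.5). Exon lengths are GENCODE M21 unions. Alternatives were DESeq2 1.42.0, its size factors, no filter, a replicate block, groups fitted alone, a pseudocount of 2 and each library left out. The scripts were tested on simulated data.

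The markers and 14 gene lists were chosen with earlier results of these data known, so list counts are no independent support. Named genes were the markers, the 5 closest by r, up to 4 per list with the smallest p in fl/fl and genes directly linked to a marker. Adam10, Adam17 and Havcr2 fall under the last; genes leading in iGKO sham 2 were chosen after their values were seen.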

Additional observations from a re-analysis of the deposited data

Results flagged for a closer look

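Havcr1 in iGKO sham 2 lay far from the other libraries of its group, at 125.6 CPM against 13.2 to 21.7 CPM. In CPM, the gap to the nearest library was 0.925 of the group's whole range, above Dixon's 95% critical value for 4 samples. The flag holds for CPM only. On the log2 scale used for the ratios and correlations, the gap among the same 4 libraries would be a smaller part of the range, below that critical value. For normally distributed values chance passes the critical value in about 1 of 20 groups, and CPM values need not be normally distributed. For each marker and for their ratio 4 groups were examined. This library was already known for its raised Havcr1, so the value is a description and no independent test.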

How the results depend on the processing

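Both markers rose after IRI in fl/fl under every alternative run, from 5.91 to 6.97 for Havcr1 and from 4.25 to 4.97 for Lcn2 with 1 library left out. The genotype difference after IRI depended on the tool. With DESeq2 Havcr1 gave -3.47 and passed, the interaction passed for Havcr1 (-5.39) and Lcn2 (-3.11), and 947 genes were called after IRI, 112 in the interaction and 44 in the iGKO response. Without a filter on low counts Havcr1 passed after IRI (-3.46) and in the interaction (-5.40), with 352, 15 and 4 genes called. With a replicate block Lcn2 after IRI was -2.33 and no longer passed (edgeR adjusted p = 0.0917), with 0 genes called there and 1 in the interaction. Of 24 same-number pairs 6 correlated above 0.1 (median 0.015, range -0.335 to 0.399), and 7 of 16 libraries correlated best with their own number. These values do not settle whether the numbers pair the libraries. Fitted on the compared groups alone, Lcn2 after IRI was -2.49 (edgeR adjusted p = 0.317), 0 genes were called there, and 1526 in fl/fl. With 1 library left out, genes called ranged from 0 to 2495 after IRI, 0 to 776 in the interaction, 1452 to 4335 in fl/fl and 0 to 1 in iGKO. Havcr1 ranged from -3.87 to -3.08 after IRI and from -6.06 to -4.10 in the interaction, Lcn2 from -2.85 to -2.16 and from -3.51 to -2.78. The ratio difference in iGKO ranged from -0.51 to 0.47, reversing to 0.47 and 0.45. Over the sham libraries r ranged from 0.584 to 0.823, rho was 0.714, and r was 0.602 centred by genotype and 0.607 without the farthest libraries. The sham r passed the threshold in only 3 of 8 repeats with 1 library left out. Over the 8 IRI libraries r was 0.875 (exact permutation p = 0.0140, adjusted 0.0280), which pools separate clusters, with rho 0.524, 0.690 centred by genotype, 0.738 without the farthest libraries and a range from 0.815 to 0.937. The causes were not tested. Read depth did not limit the markers, whose lowest counts were 64 and 54 reads.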

Other observations

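Of 7 other lipocalin genes tested, 1 changed in fl/fl, in the opposite direction to Lcn2, a share near the 15.5% called over all genes. Ptgds, the gene of a prostaglandin synthase, fell from 1.23 ± 0.36 to 0.505 ± 0.189 CPM (SD, n = 4; log2 difference -1.28 ± 0.41, edgeR adjusted p = 0.0449). After IRI it was higher in iGKO, at 2.15 ± 0.52 CPM (2.07 ± 0.40, edgeR adjusted p = 0.0392). Of 22 genes of the thick ascending limb and distal nephron, segments that can make NGAL, 7 fell and 0 rose in fl/fl. Over all genes tested 7.01% were called lower and 8.46% higher. Which cells made the Lcn2 RNA was not tested.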
